A study of Mus musculus with 24 samples.

Results

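The genes described here are 10 mouse genes of the inflammasome and of pyroptosis, taken by symbol from the deposited count files: Nlrp3, Nlrc4, Aim2, Mefv, Pycard, Casp1, Casp4, Gsdmd, Nlrp1b and Naip5. The files hold 52976 gene symbols. All 10 passed the filter on low counts in wounds, among 17592 genes tested, and 8 passed it in cells, among 12972. The genes were listed by name for their function, but with earlier results of these data known. Counts of members beside shares of all genes are therefore descriptions.

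Inflammasomes are complexes that form in the cytosol when a sensor meets a sign of infection or damage. The sensor, often through the adaptor ASC (the product of Pycard), brings pro-caspase-1 together, and active caspase-1 cuts pro-interleukin-1 beta, pro-interleukin-18 and gasdermin D. The freed gasdermin D fragment forms pores in the plasma membrane, and the lytic death that follows is called pyroptosis. Caspase-11, the product of Casp4, binds lipopolysaccharide (LPS) of Gram-negative bacteria and cuts gasdermin D directly. In wounds, macrophages and neutrophils are the cells best known for these genes, and keratinocytes hold some of them.

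Messenger RNA had been sequenced from wound tissue of diabetic mice and from RAW264.7, an established mouse macrophage-like cell line. Diabetic control wounds and wounds that received the Fmoc-KYF-AgNCs-3S1C-Hyd2 hydrogel, a peptide gel with silver nanoclusters and a hydrogenase, were sampled on days 1, 7 and 14, with 3 libraries in each of the 6 groups. The titles mark the control wounds as Dia and the hydrogel wounds as TEOA, which the labels do not explain. The cell groups, with 3 libraries each, were controls titled Without_H2 and labelled with LPS, and cells titled H2 and labelled with the gel. The label of the gel-treated cells names the gel alone, whereas the text of the series speaks of macrophages induced by LPS for both groups, so it is not settled whether these cells also received LPS. If they did not, LPS is part of the difference between the cell groups. The gel's name ends in Hyd3, Hyd4 or Hyd5 in the 3 treated cell libraries, and none of these is the Hyd2 of the wounds. If the names mark different gels, these libraries are not replicates of 1 treatment. They are taken here as 1 group, and the SEs and p-values in cells rest on that. Strain, age and the way diabetes was induced are not given in the sources used here. Nothing in the labels says that libraries of a group came from separate animals or cultures, so p-values reflect only how far these libraries lie from each other, possibly for technical reasons.

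Total counts ran from 12.43 M to 27.06 M read pairs per wound library and from 17.93 M to 23.96 M per cell library. Libraries differed in how closely they repeated each other. The chi-square of the members' counts per degree of freedom, which is near 1 for counting noise alone, was 2.08 in control wounds at day 7 and 2.42 in hydrogel wounds at day 7, against 58.8 in control wounds at day 1, 36.5 in control wounds at day 14, 48.5 in hydrogel wounds at day 1 and 12.7 in hydrogel wounds at day 14. It was 1.6 in control cells and 24.1 in gel-treated cells. Control day 1 replicate 1 stood apart. The summed level of 8 adipocyte markers was 74320 CPM there (CPM, counts scaled to library size with TMM factors), while replicates 2 and 3 had 11060 and 5047 CPM. Its macrophage markers summed to 1317 CPM, against 542.7 and 487.7 CPM, and its skeletal muscle markers to 6997 CPM, against 225400 and 133600 CPM. Control day 14 replicate 1 had a summed level of 15 monocyte and macrophage markers of 5504 CPM, while replicates 2 and 3 had 1861 and 694.5 CPM. Its fibroblast markers summed to 49260 CPM, against 19510 and 11590 CPM, and its basal keratinocyte markers to 667.1 CPM, against 4368 and 5943 CPM. Hydrogel day 1 replicate 1 had 12.43 M read pairs, while replicates 2 and 3 had 26.64 M and 27.06 M. Its endothelial markers summed to 1288 CPM, against 354.9 and 533.4 CPM, and its neutrophil markers to 2439 CPM, against 1875 and 1444 CPM. Its macrophage markers, at 987.5 CPM, lay between 1004 and 772.1 CPM. In the cells, the macrophage markers Csf1r, Adgre1, Cd68 and Lyz2 were above 1 CPM, while Mrc1, C1qa, C1qb, C1qc and Mertk were below it in both groups.

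The upstream sequences of Casp1 and Casp4 are shown because these neighbouring genes of the + strand of chromosome 9 fell by nearly the same amount in gel-treated cells. Casp1 lies at chr9:5298508-5307290 and Casp4 at chr9:5308828-5336783 (GRCm38). Nlrp3 (chr11:59541568-59566956, + strand) is shown beside them as the member with the highest level per length in those cells. Each sequence is the 250 bases before a RefSeq start site on the GRCm38.p6 build, 5′ to 3′ on the gene's strand, and capitals mark bases that match a searched motif. The windows are chr9:5298267-5298516 for Casp1, chr9:5308599-5308848 for Casp4, and chr11:59541319-59541568 for the first start of Nlrp3.

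Casp1: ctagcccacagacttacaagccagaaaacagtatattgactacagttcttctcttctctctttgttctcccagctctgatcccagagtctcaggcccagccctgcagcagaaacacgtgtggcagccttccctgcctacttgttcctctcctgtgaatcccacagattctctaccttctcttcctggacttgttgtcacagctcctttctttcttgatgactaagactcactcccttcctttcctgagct

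Casp4: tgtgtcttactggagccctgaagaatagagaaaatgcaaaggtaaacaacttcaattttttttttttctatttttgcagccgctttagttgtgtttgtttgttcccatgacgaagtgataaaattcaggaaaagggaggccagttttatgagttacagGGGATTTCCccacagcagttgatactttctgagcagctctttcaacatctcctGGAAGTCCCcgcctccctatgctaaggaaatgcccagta

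Nlrp3: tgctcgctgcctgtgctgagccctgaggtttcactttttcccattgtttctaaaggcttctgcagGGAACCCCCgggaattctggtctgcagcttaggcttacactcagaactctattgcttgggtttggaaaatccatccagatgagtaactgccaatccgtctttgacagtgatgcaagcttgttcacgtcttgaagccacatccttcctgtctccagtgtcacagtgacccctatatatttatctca

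RefSeq promoter sequences matched 9 of the 10 members, with 12 start sites, and held none for Gsdmd. An NF-kappaB-type motif, GGGNNTTCC, searched on both strands, was found 2 times in the Casp4 window, at -92 to -84 on the gene's strand and at -39 to -31 on the opposite strand, and 1 time in this Nlrp3 window, at -185 to -177 on the opposite strand. It was in 4.97% of all 32817 such windows. The PU.1-type motif GAGGAAG, held by 10.6% of windows, was found upstream of the second Nlrp3 start, Aim2, Pycard and one Nlrp1b start. The ISRE-type motif GAAANNGAA (7.12% of windows) and the AP-1-type motif TGANTCA (6.75%) had no match upstream of any member. The Casp1 window held none of the 4. The ISRE-type and NF-kappaB-type letters had first been searched in forms 1 letter longer and were shortened after those matches had been seen. The longer forms, in 2.97% and 4.11% of windows, gave 0 matches for the ISRE type, 3 for NF-kappaB in the Casp4 window, 1 in this Nlrp3 window and 0 at the second Nlrp3 start, where the shorter form gave 1. The number of matches therefore depends on the letters chosen. A match is a description of letters and no evidence of binding.

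In wounds, the 4 members with the highest level per kb of counted exon were Gsdmd, Casp4, Casp1 and Pycard in all 6 groups except hydrogel wounds at day 14, where Aim2 was above Casp4. In control wounds at day 7, Gsdmd stood at 15.98 ± 1.29 CPM per kb (SD, n = 3), above Casp4 at 7.53 ± 0.26 and Casp1 at 5.66 ± 0.42, and these 3 did not overlap. Pycard at 1.88 ± 0.37 and Aim2 at 1.56 ± 0.18 CPM per kb overlapped, and Nlrp3 was the lowest member at 0.204 ± 0.025 CPM per kb. The counted exons of Pycard, 3800 bases, take up most of its span (chr7:127989708-127993867). Its level per kb may therefore be too low, and its rank is uncertain. In control RAW264.7 cells the order was different. Nlrp3 led at 148.5 ± 1.9 CPM per kb, followed by Gsdmd at 43.3 ± 1.8, Casp1 at 35.3 ± 0.9, Aim2 at 31.4 ± 0.6 and Casp4 at 24.8 ± 0.4, with no overlap between neighbours. Naip5 and Nlrp1b, at 4.04 ± 0.27 and 3.62 ± 0.14 CPM per kb, overlapped. Pycard and Mefv were close to 0 in these cells: Pycard had 7 counts over the 3 control libraries and 5 over the 3 gel-treated ones, and Mefv had 1 and 0. RAW264.7 cells are known for lacking ASC.

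The sensors Mefv and Nlrp3 rose with hydrogel at day 1. Mefv encodes pyrin, an inflammasome sensor that is known from neutrophils and monocytes. Its levels were 0.476, 0.0758 and 0.254 CPM in the control libraries and 5.67, 6.79 and 2.90 CPM in the hydrogel libraries. Every hydrogel library was above every control library, a separation that 17.1% of all tested genes showed in 1 direction or the other at day 1. The log2 fold change was 4.20 ± 0.57 (SE, adjusted p = 0.00181, edgeR). The control level rested on 12 counts over the 3 libraries.

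Nlrp3 encodes the sensor that responds to potassium efflux and many kinds of membrane damage. It was at 1.36, 0.152 and 0.380 CPM in control and 6.96, 4.58 and 2.54 CPM in hydrogel wounds at day 1. The groups did not overlap, and the log2 fold change was 2.86 ± 0.72 (adjusted p = 0.028). The call was lost when control replicate 2 (2.42, adjusted p = 0.077), control replicate 3 (adjusted p = 0.0673) or hydrogel replicate 2 (adjusted p = 0.0521) was left out.

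These 2 were the members that passed at day 1, both upward, where 4.53% of all tested genes rose and 3.02% fell. The members' median log2 fold change was 0.57, beside 0.04 over all genes. Nlrp1b, a sensor of protease activity, had 1.47 ± 0.44 (adjusted p = 0.0564), and the groups overlapped. Pycard, Gsdmd, Naip5, Casp1, Aim2, Casp4 and Nlrc4 lay between 0.86 and -0.28 and did not pass. Casp4 was at 41.0, 7.73 and 7.35 CPM in the controls, with the high value in replicate 1. That library had the highest summed adipocyte, macrophage, fibroblast and endothelial markers of its group and the lowest skeletal muscle markers. The part of these cells in the Casp4 level was not tested. Fitted on the day 1 libraries alone, no member passed: the adjusted p was 0.3 for Mefv and 0.359 for Nlrp3.

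**Figure D1:**
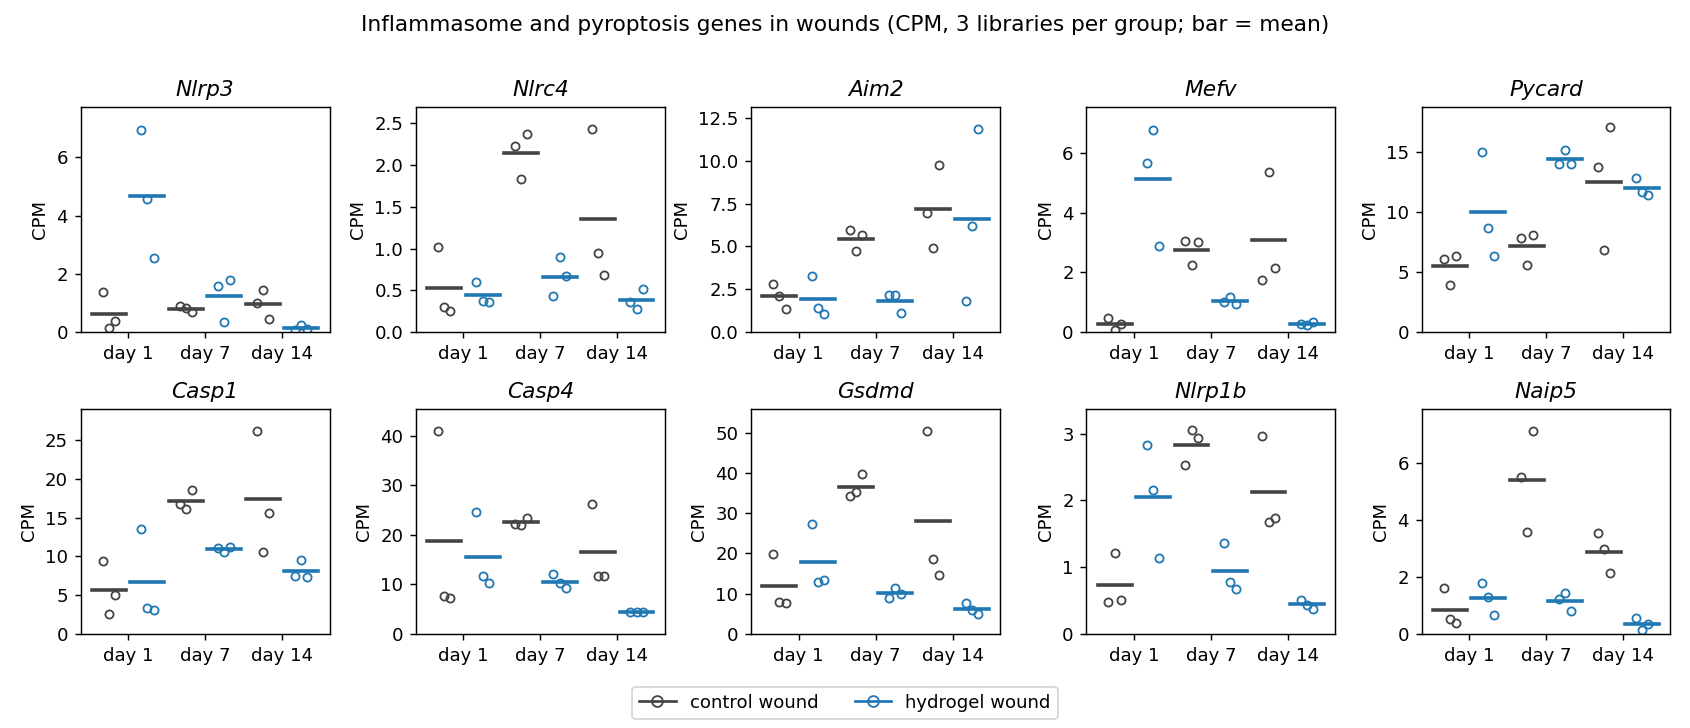
Levels of the 10 genes in each wound library (y axis, CPM; x axis, day; grey, control; blue, hydrogel; circles, the 3 libraries; bars, group means). Mefv and Nlrp3 are higher in hydrogel wounds at day 1, and most members are lower there at days 7 and 14.

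At day 7 most members were lower in hydrogel wounds. Gsdmd, the pore-forming substrate of the inflammatory caspases, was at 34.2, 35.4 and 39.8 CPM in control and 8.90, 11.4 and 10.02 CPM in hydrogel wounds, a log2 fold change of -1.85 ± 0.46 (adjusted p = 0.0123). Naip5, which binds flagellin and hands it on to the Nlrc4 inflammasome, was at 5.50, 3.59 and 7.12 CPM in control and 1.22, 1.46 and 0.802 CPM in hydrogel wounds (-2.21 ± 0.54, adjusted p = 0.0111). The groups of both genes were clear of each other, as were those of 70.2% of all tested genes at day 7, so this separation is common there. The Gsdmd call ended without hydrogel replicate 1 (adjusted p = 0.0542) and the Naip5 call without hydrogel replicate 3 (adjusted p = 0.0546).

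Its partner Nlrc4 was at 2.23, 1.83 and 2.37 CPM in control and 0.431, 0.896 and 0.668 CPM in hydrogel wounds (-1.67 ± 0.54, adjusted p = 0.0402). Nlrp1b was at 2.53, 3.05 and 2.93 CPM against 1.36, 0.784 and 0.668 CPM (-1.60 ± 0.44, adjusted p = 0.0187). Neither gene's groups overlapped, which is the common case at day 7. The Nlrc4 call ended with any 1 of the 6 day 7 libraries left out (adjusted p from 0.0693 to 0.143), and the Nlrp1b call without control replicate 2 or 3 or hydrogel replicate 2 or 3 (adjusted p from 0.0548 to 0.0819). Naip5 and Nlrp1b have close paralogs, and pairs that map to several places were not counted, so both levels are uncertain.

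Pycard was higher in hydrogel wounds at day 7. It was at 7.81, 5.56 and 8.10 CPM in control and 14.0, 15.2 and 14.0 CPM in hydrogel wounds (1.01 ± 0.35, adjusted p = 0.0489). The hydrogel libraries lay above all controls. The call ended with any 1 of the 6 libraries left out (adjusted p from 0.0918 to 0.169) and with no filter on low counts (adjusted p = 0.0812). Of its exon bases, 12.8% are shared with Gm45205 on the opposite strand, and the counting did not use strand.

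The remaining 5 did not pass at day 7. Casp4 was at 22.2, 22.02 and 23.5 CPM in control and 12.2, 10.3 and 9.22 CPM in hydrogel wounds, clear of each other, with a log2 fold change of -1.09 ± 0.55 (adjusted p = 0.16). Casp1, the protease that matures interleukin-1 beta, had -0.65 ± 0.52 (adjusted p = 0.377), Mefv -1.40 ± 0.49 (adjusted p = 0.0526), Aim2, a sensor of cytosolic DNA, -1.57 (adjusted p = 0.0622) and Nlrp3 0.61 ± 0.71 (adjusted p = 0.554). In all, 4 members fell and 1 rose, where 11.7% of tested genes fell and 9.86% rose; the median was -1.49 over the members and 0.01 over all genes. The calls at day 7 rest on how libraries are counted and on which libraries set the spread. Fitted on the closely matching day 7 groups alone, 9 members passed (adjusted p = 4.92e-07 for Casp4, edgeR). With the closely matching day 7 libraries of each group summed to 1, no member passed (adjusted p = 0.719 for Gsdmd), and with any 1 library left out 1 to 3 passed, 1 of them without hydrogel replicate 3.

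By day 14 the members that passed had all fallen. Mefv was at 1.74, 5.35 and 2.15 CPM in control and 0.276, 0.218 and 0.345 CPM in hydrogel wounds (-3.44 ± 0.53, adjusted p = 0.00161). Naip5 was at 3.54, 3.00 and 2.15 CPM against 0.553, 0.156 and 0.345 CPM (-3.04 ± 0.57, adjusted p = 0.00372). Nlrp1b was at 2.96, 1.67 and 1.74 CPM against 0.513, 0.437 and 0.380 CPM (-2.24 ± 0.44, adjusted p = 0.00497). These 3 had groups that did not overlap, as did 43.7% of all tested genes at day 14, and they passed with each compared library left out in turn.

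Gsdmd was at 50.5, 18.6 and 14.7 CPM in control and 7.66, 6.05 and 4.90 CPM in hydrogel wounds (-2.17 ± 0.47, adjusted p = 0.00729; adjusted p = 0.0508 without hydrogel replicate 3). The highest control value was in replicate 1, which had the highest summed macrophage and fibroblast markers and the lowest basal keratinocyte markers of its group. Casp4 was at 26.3, 11.7 and 11.6 CPM against 4.34, 4.37 and 4.35 CPM (-1.92 ± 0.56, adjusted p = 0.0306). Its call ended without control replicate 1 (-1.42, adjusted p = 0.154) and without any 1 of the 3 hydrogel libraries (adjusted p from 0.0799 to 0.11).

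Nlrp3 was at 0.986, 1.46 and 0.458 CPM in control and 0.0789, 0.250 and 0.104 CPM in hydrogel wounds (-2.66 ± 0.78, adjusted p = 0.0305). Nlrc4 was at 2.44, 0.942 and 0.687 CPM against 0.355, 0.281 and 0.518 CPM (-1.79 ± 0.54, adjusted p = 0.0362). Neither gene had overlapping groups, the case for 43.7% of all genes. Leaving out 1 library ended the Nlrp3 call in 5 of 6 cases and the Nlrc4 call in 4, and without control replicate 1 Nlrc4 stood at -1.08 (adjusted p = 0.229).

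Casp1 (-1.10 ± 0.52, adjusted p = 0.155), Aim2 (-0.12) and Pycard (-0.07) did not pass. In all, 7 of 10 members fell at day 14, where 10.3% of tested genes fell and 5.83% rose, and the members' median was -2.05, beside 0.03 over all genes. With only the day 14 groups in the fit, 3 members passed.

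**Figure D2:**
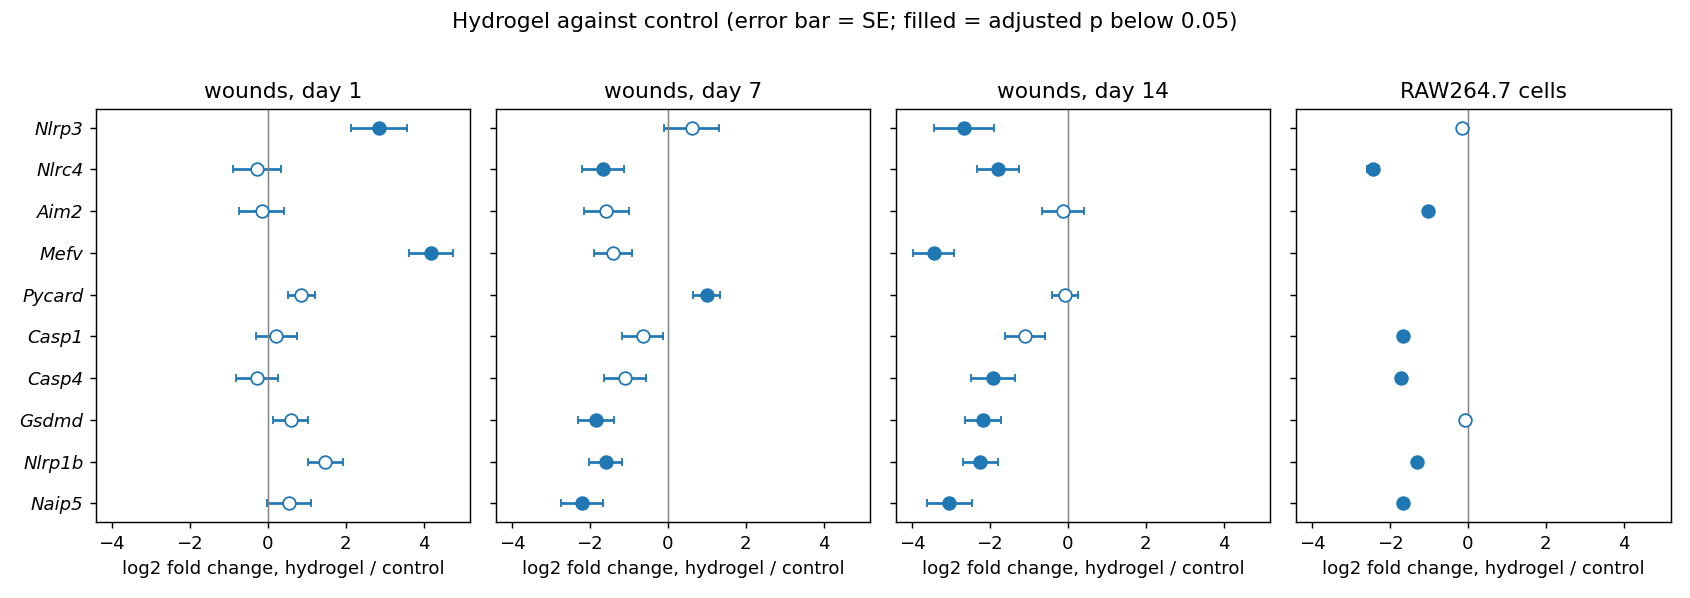
Log2 fold change of hydrogel over control for each gene (x axis; error bars, SE; filled circles, adjusted p below 0.05) in wounds at days 1, 7 and 14 and in RAW264.7 cells. Mefv goes from 4.20 at day 1 to -3.44 at day 14; Mefv and Pycard were not tested in cells.

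The change of the hydrogel difference between days was tested in 1 model. It passed for Mefv (adjusted p = 0.00021), Nlrp1b (0.00373), Nlrp3 (0.00885), Naip5 (0.0153) and Gsdmd (0.0165), 5 of 10 members, where 15.8% of all genes passed. Casp1, Casp4, Aim2, Nlrc4 and Pycard did not pass, with adjusted p from 0.207 to 0.382.

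Within control wounds, 6 members rose from day 1 to day 7, where 15% of tested genes rose. Mefv rose by 3.31 on the log2 scale, Naip5 by 2.66, Nlrc4 by 2.01, Nlrp1b by 1.96, Gsdmd by 1.62 and Casp1 by 1.60. Aim2, at 1.39 (adjusted p = 0.0759), Pycard, at 0.39, Nlrp3, at 0.33, and Casp4, at 0.27, did not pass. Without control day 1 replicate 2, or without replicate 3, the count was 3 instead of 6. The Casp1 call ended in 5 of the 6 cases (adjusted p from 0.0646 to 0.126), all but that without control day 1 replicate 1, and the Nlrc4 and Gsdmd calls ended without control day 1 replicate 2 or 3. In the same comparison 10 of 15 macrophage markers (median 2.59) and 9 of 9 fibroblast markers (median 2.51) rose. Of the T and NK cell markers 6 of 11 rose and 1 fell, and of the dendritic cell markers 5 of 9 rose and 1 fell. Basal keratinocyte markers fell in 5 of 9. Over all genes 2916 of 17592 fell. The part of these cell types in the members' rise was not tested. From day 7 to day 14 in control wounds no member passed in the edgeR test, 1 had an unadjusted p below 0.05, DESeq2 called 0 and limma-voom 3, beside 12.2% of all genes passing in either direction.

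Within hydrogel wounds 1 sensor passed from day 1 to day 7 and 4 from day 7 to day 14. From day 1 to day 7 Mefv fell by 2.29 (adjusted p = 0.00817), where 10.5% of genes fell. Over the same days 8 of 10 neutrophil markers (median -3.26) fell, and of 15 macrophage markers 4 fell and 1 rose. Over all genes 1366 of 17592 rose. From day 7 to day 14 Nlrp3 fell by 3.00 (adjusted p = 0.0158), Mefv by 1.87 (adjusted p = 0.0229) and Naip5 by 1.73 (adjusted p = 0.0439), where 9.6% of genes fell. Aim2 rose by 1.86 (adjusted p = 0.0329), where 11.7% rose; its hydrogel libraries at day 14 spread from 1.82 to 11.9 CPM. Over these days 7 of 15 macrophage markers (median -1.98), 6 of 10 neutrophil markers (median -2.80) and 6 of 8 endothelial markers fell. The part of these cells in the members' changes was not tested. With 1 library left out, 0 to 2 of these 4 passed, and 0 did so without hydrogel day 7 replicate 1, day 7 replicate 3 or day 14 replicate 3. The comparisons within an arm share their day 7 libraries with each other and with the hydrogel comparison of that day.

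In RAW264.7 cells, 6 of the 8 tested members fell with the gel. Nlrc4 was at 11.1, 10.04 and 11.7 CPM in control and 2.13, 2.38 and 1.60 CPM in gel-treated cells (-2.43 ± 0.14, adjusted p = 2.15e-07). Casp4 was at 73.8, 73.8 and 75.7 CPM against 22.3, 23.8 and 22.1 CPM (-1.71 ± 0.06, adjusted p = 2.36e-08). Casp1 was at 109.4, 108.1 and 104.3 CPM against 36.3, 33.9 and 31.8 CPM (-1.66 ± 0.07, adjusted p = 3.7e-08). In each of these genes the lowest control library was above the highest gel-treated one. Groups were clear of each other in 6 of the 8 tested members and in 75.9% of all tested genes, so the members did not stand out by separation.

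Naip5 was at 22.1, 21.6 and 19.4 CPM against 6.22, 6.04 and 7.57 CPM (-1.66 ± 0.11, adjusted p = 3.4e-07). Nlrp1b was at 23.1, 23.6 and 21.8 CPM against 8.35, 9.74 and 9.54 CPM (-1.30 ± 0.09, adjusted p = 4.35e-07). Aim2 was at 108.6, 108.5 and 112.5 CPM against 51.1, 55.3 and 54.9 CPM (-1.03 ± 0.06, adjusted p = 2.12e-07). These groups were clear of each other too.

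Nlrp3 and Gsdmd did not pass. Nlrp3 was at 576.8, 584.5 and 591.4 CPM in control and 458.0, 535.9 and 587.1 CPM in gel-treated cells (-0.15 ± 0.08, adjusted p = 0.136), and the groups overlapped. Gsdmd was at 99.5, 94.4 and 102.5 CPM against 104.7, 92.2 and 83.9 CPM (-0.08 ± 0.08, adjusted p = 0.396), also with overlap. Each passed in 1 of the 6 fits that left out a library: Nlrp3 without gel replicate 3 and Gsdmd without gel replicate 1. In this comparison 37.8% of all tested genes fell and 34.7% rose, so a fall was common among genes of any kind. The members' median was -1.48, beside -0.04 over all genes.

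**Figure D3:**
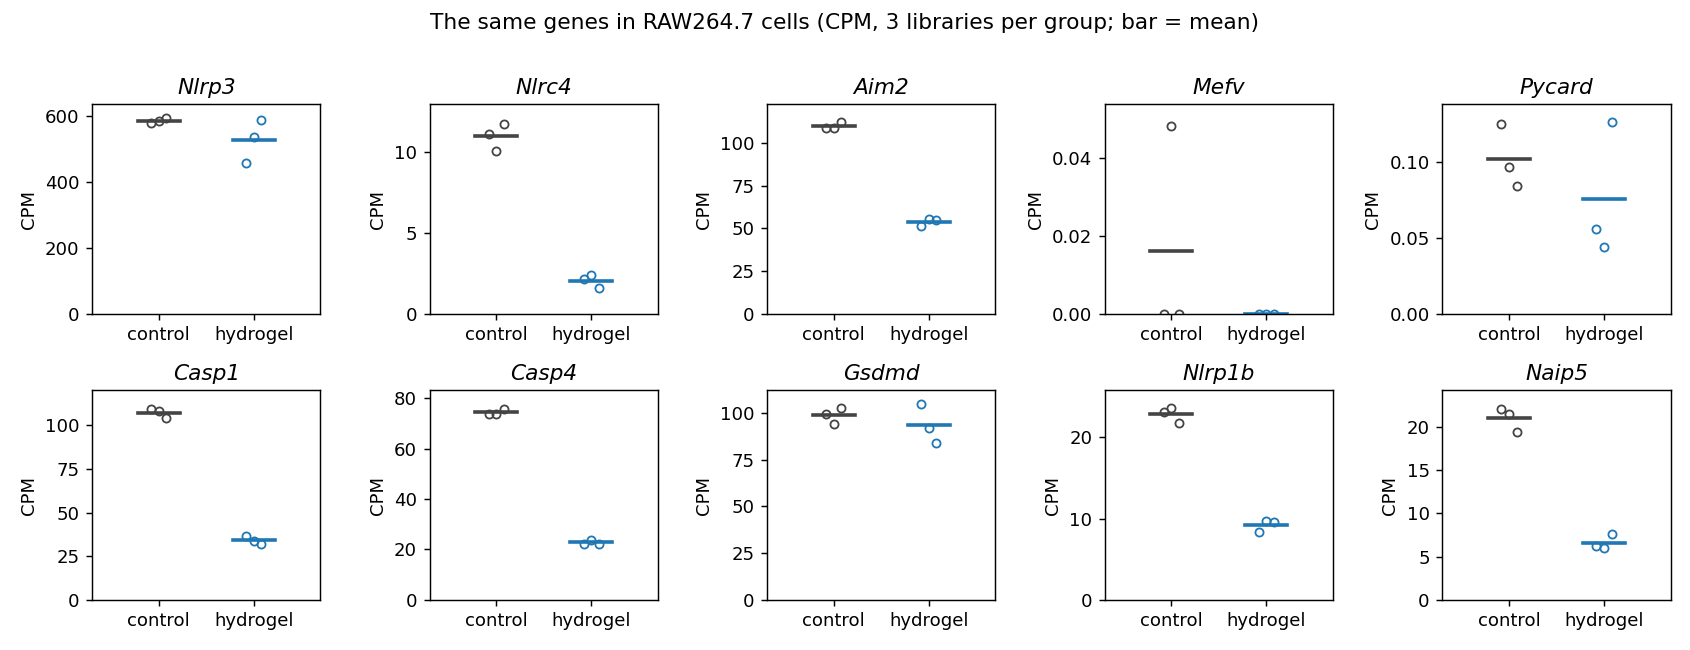
Levels of the 10 genes in each RAW264.7 library (y axis, CPM; circles, 3 libraries per group; bars, means). For Nlrc4, Casp4, Casp1, Naip5, Nlrp1b and Aim2 every gel-treated library is below every control library, as 75.9% of all tested genes also have groups that do not overlap; Mefv and Pycard are near 0.

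Among the proteins that caspase-1 matures, Il1b rose at day 1 in hydrogel wounds, from 5.16, 2.05 and 3.42 CPM in control to 75.7, 19.5 and 12.8 CPM (log2 fold change 3.34 ± 0.71, adjusted p = 0.0141). It had 0.88 ± 0.66 at day 7 (adjusted p = 0.348) and fell by 2.44 at day 14 (adjusted p = 0.0274). In cells it was at 435.4, 423.6 and 438.1 CPM in control and 98.7, 125.0 and 137.1 CPM with the gel (-1.84 ± 0.10, adjusted p = 1.76e-07). Every gel-treated cell library was below every control, and 75.9% of all tested genes in cells had groups that did not overlap. The Il1b call ended at day 1 without control replicate 2 (3.06, adjusted p = 0.0501), and at day 14 without control replicate 2 (-1.61, adjusted p = 0.123) or any 1 of the hydrogel libraries (adjusted p from 0.0832 to 0.0978). Il18 had -0.11 at day 1, -1.52 at day 7 (adjusted p = 0.141) and -1.54 at day 14 (adjusted p = 0.15), none of which passed, and fell by 1.81 in cells (adjusted p = 6.44e-08). Of the interleukin-1 family list, 3 of 9 tested genes rose and 1 fell at day 1, and 2 rose and 1 fell at day 7. At day 14, 3 fell, and in cells 6 of 8 fell and 1 rose. The list medians were 0.61, 0.12, -1.41 and -1.27 in that order, beside 0.04, 0.01, 0.03 and -0.04 over all genes. Over all tested genes 4.53% rose and 3.02% fell at day 1, and 9.86% and 11.7% at day 7. These shares were 5.83% and 10.3% at day 14, and 34.7% and 37.8% in cells. The 1 fall of 9 at day 7 was near its share. The smallest adjusted p of this list at day 7 was that of Il1f8 (Il36b), which rose from a low mean of 0.189 to 3.30 CPM (4.08 ± 0.80, adjusted p = 0.00407). Il33, an alarmin of barrier cells, rose at day 1 (2.67 ± 0.61, adjusted p = 0.019) and fell at day 14 (-2.74 ± 0.61, adjusted p = 0.00873). These calls ended without control replicate 2 at day 1 (adjusted p = 0.0638), and at day 14 without control replicate 1 (-1.78, adjusted p = 0.0528) or hydrogel replicate 3 (adjusted p = 0.0576).

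Guanylate-binding proteins and related GTPases coat bacteria and their vacuoles and help to bring LPS to caspase-11. In cells all 11 fell (median -2.90): Gbp5 went from a mean of 24.0 to 1.28 CPM (-4.20 ± 0.14, adjusted p = 1.86e-08), Gbp2b from 38.6 to 2.85 CPM (-3.76 ± 0.10, adjusted p = 3.62e-09) and Gbp3 from 59.2 to 6.17 CPM (-3.25 ± 0.09, adjusted p = 6.13e-09). In wounds 0 of 11 passed at day 1 (median 0.08), 5 fell at day 7 (median -1.49) and 7 fell at day 14 (median -1.93). Over all genes 37.8% fell in cells, 11.7% at day 7 and 10.3% at day 14. Among those that fell at day 14 were Irgm1 (-1.96 ± 0.41, adjusted p = 0.00603) and Gbp9 (-1.85 ± 0.42, adjusted p = 0.00963). The Gbp9 call ended without hydrogel day 14 replicate 2 (adjusted p = 0.0538) or 3 (adjusted p = 0.0581). Several of these genes are near-identical neighbours, and their separate levels are uncertain.

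Of 15 other sensors tested in wounds, 1 rose and 1 fell at day 1, and 2 rose and 7 fell at days 7 and 14 each. Their medians were 0.29, -1.22 and -1.16 at days 1, 7 and 14. The counts at day 1 were near the shares over all genes (4.53% rose, 3.02% fell), as were the 2 rises at day 7 (9.86% rose). Over all genes 11.7% fell at day 7 and 10.3% at day 14. In cells 14 of 17 fell and 1 rose (median -1.23), where 37.8% of all genes fell and 34.7% rose. The smallest adjusted p of this list at day 7 was that of Nlrp12, which rose from a low mean of 0.374 to 4.495 CPM (3.56 ± 0.82, adjusted p = 0.00824). Ifi204, a DNA-binding gene of the Aim2 family, fell at day 7 (-2.93 ± 0.75, adjusted p = 0.0135), at day 14 (-3.35 ± 0.76, adjusted p = 0.00968) and in cells (-2.61 ± 0.06, adjusted p = 3.62e-09). Naip2, another Nlrc4 partner, fell at day 14 (-3.31 ± 0.75, adjusted p = 0.00987). The Ifi204 call ended at day 7 without any 1 of the hydrogel libraries (adjusted p from 0.0511 to 0.0553), and at day 14 without control replicate 1 (-2.01, adjusted p = 0.0645) or hydrogel replicate 3 (adjusted p = 0.057). The Naip2 call ended without hydrogel replicate 3 (adjusted p = 0.061).

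Of 7 tested genes in the list of other gasdermins and Ninj1, 5 rose and 1 fell in hydrogel wounds at day 7 (median 4.46). Over all genes 9.86% rose and 11.7% fell then. At day 1, 1 rose (median 0.21), and at day 14, 1 fell (median 0.65), beside 4.53% rising and 10.3% falling over all genes. In cells 1 of 2 fell (median -0.18), where 37.8% of all genes fell. Gsdmc was at a mean of 0.0924 CPM in control and 8.36 CPM in hydrogel wounds (6.38 ± 0.79, adjusted p = 0.000721), and Gsdma3, which is known from hair follicles and upper epidermis, at 0.168 and 12.8 CPM (6.21 ± 1.33, adjusted p = 0.00606). Both control means are very low, so the sizes of these changes are uncertain. Summed basal keratinocyte markers at day 7 were 908.5 to 910.4 CPM in control and 7988 to 8179 CPM in hydrogel wounds; the part of this in the gasdermin result was not tested. Ninj1, whose product tears the membrane of dying cells, fell at day 7 (-1.62 ± 0.52, adjusted p = 0.0386) and day 14 (-2.16 ± 0.53, adjusted p = 0.0143), and had 0.21 at day 1 and 0.14 in cells, without passing. Its day 7 call ended with any 1 of the 6 libraries left out (adjusted p from 0.0818 to 0.106), and its day 14 call without control replicate 1 (-0.77, adjusted p = 0.0969) or hydrogel replicate 2 or 3 (adjusted p = 0.0597 and 0.0715). In cells it passed without gel replicate 3 (0.32, adjusted p = 0.000412). Gsdme, cut by caspase-3, passed in none of the wound comparisons with hydrogel in the main edgeR test and fell in cells (-0.49 ± 0.13, adjusted p = 0.00623). At day 1 it had -0.73 ± 0.26 (adjusted p = 0.0942). It passed there under DESeq2 (adjusted p = 0.0372), under limma-voom (adjusted p = 0.0078) and without control replicate 1 (-0.99, adjusted p = 0.0139, edgeR).

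Of 15 regulators of assembly, 5 rose and 1 fell at day 1 (median 0.94), 5 fell at day 7 (median -0.27) and 6 fell at day 14 (median -0.97). Over all genes 4.53% rose and 3.02% fell at day 1, 11.7% fell at day 7 and 10.3% at day 14. In cells 3 of 13 rose and 7 fell (median -0.40), beside 34.7% and 37.8% of all genes. Serpinb1a, an inhibitor of neutrophil proteases and inflammatory caspases, rose at day 1 (4.17 ± 0.43, adjusted p = 0.00032), while Txnip, a binding partner of NLRP3, fell (-2.26 ± 0.33, adjusted p = 0.00297). P2rx7, the ATP-gated channel that triggers NLRP3, rose at day 1 (1.27 ± 0.24, adjusted p = 0.00801). Irf8, a transcription factor of myeloid cells, fell at day 7 (-1.72 ± 0.47, adjusted p = 0.0189) and day 14 (-2.35 ± 0.48, adjusted p = 0.00593); the day 7 call ended in 5 of 6 cases with 1 library left out, all but that without control replicate 1 (adjusted p from 0.052 to 0.0657). Of 12 apoptosis and necroptosis effectors, 0 passed at day 1 (median 0.18), 2 fell at day 7 (median -0.81) and 1 rose at day 14 (median -0.41). The counts at days 7 and 14 were near the shares over all genes (11.7% fell at day 7, 5.83% rose at day 14). In cells 3 rose and 8 fell (median -0.58). Among those that fell in cells was Mlkl, the necroptosis pore (-1.49 ± 0.06, adjusted p = 3.91e-08). Of 12 ESCRT-III genes, whose products repair gasdermin pores, 1 fell at day 1 and 0 passed at days 7 and 14. In cells 4 rose and 4 fell, shares close to those of all genes. Their medians were -0.13, 0.01 and -0.01 at days 1, 7 and 14 and -0.06 in cells.

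Markers of several cell types differed between hydrogel and control wounds on the days when members did. The summed level of 15 monocyte and macrophage markers ran from 487.7 to 1317 CPM in control and 772.1 to 1004 CPM in hydrogel wounds at day 1, from 3200 to 3236 against 462.8 to 513.8 CPM at day 7, and from 694.5 to 5504 against 179 to 203.8 CPM at day 14. Of these 15 markers, 2 rose at day 1, 14 fell at day 7 and 13 fell at day 14. Over all genes 4.53% rose and 3.02% fell at day 1, 9.86% and 11.7% at day 7, and 5.83% and 10.3% at day 14. No macrophage marker was at 0 in any wound group. The summed level of 14 neutrophil markers was 1150 to 1690 CPM in control and 1444 to 2439 CPM in hydrogel wounds at day 1, and 4 of the 10 tested rose. It was 479.3 to 487.7 against 141.6 to 228.2 CPM at day 7, with 1 of 10 down, a share near the 11.7% of all genes that fell, and 109.1 to 406.2 against 56.8 to 153.5 CPM at day 14, with 6 down. Ly6g was at 0 in control wounds at day 1 and in hydrogel wounds at days 7 and 14, with Ltf at 0 in hydrogel wounds at day 7, Retnlg and Ngp at 0 in hydrogel wounds at day 14, and Ngp at 0 in control wounds at day 14. Other cell types differed as well. Fibroblast markers fell in 9 of 9 at day 7 (median -2.24) and 9 of 9 at day 14 (median -3.02), endothelial markers in 7 of 8 and 4 of 8, and adipocyte markers in 7 of 8 and 0 of 8. Erythrocyte markers fell in 5 of 6 at day 1, 6 of 6 at day 7 and 3 of 6 at day 14. Basal keratinocyte markers rose in 7 of 9 and differentiated keratinocyte markers in 7 of 10 at day 7. Skeletal muscle markers summed to 6997 to 225400 CPM in control and 106400 to 184200 CPM in hydrogel wounds at day 1. They were 32260 to 32740 against 95450 to 108800 CPM at day 7, and 33040 to 40690 against 13750 to 24470 CPM at day 14. Of 11 T and NK cell markers, 1 fell at day 1, 4 fell at day 7, and 1 rose and 2 fell at day 14. Of 9 dendritic cell markers, 1 rose and 3 fell at day 7, and 3 fell at day 14. The counts of 1 in these lists were near the shares over all genes. The part of these cells in the hydrogel differences was not tested, and in bulk tissue fewer cells of a type and less RNA per cell cannot be told apart. In RAW264.7 cells the same macrophage markers summed to 6437 to 6535 CPM in control and 9893 to 10470 CPM with the gel. This is the opposite direction to the members. Of the 11 tested markers 7 rose and 3 fell, where 34.7% of all genes rose and 37.8% fell.

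**Figure D4:**
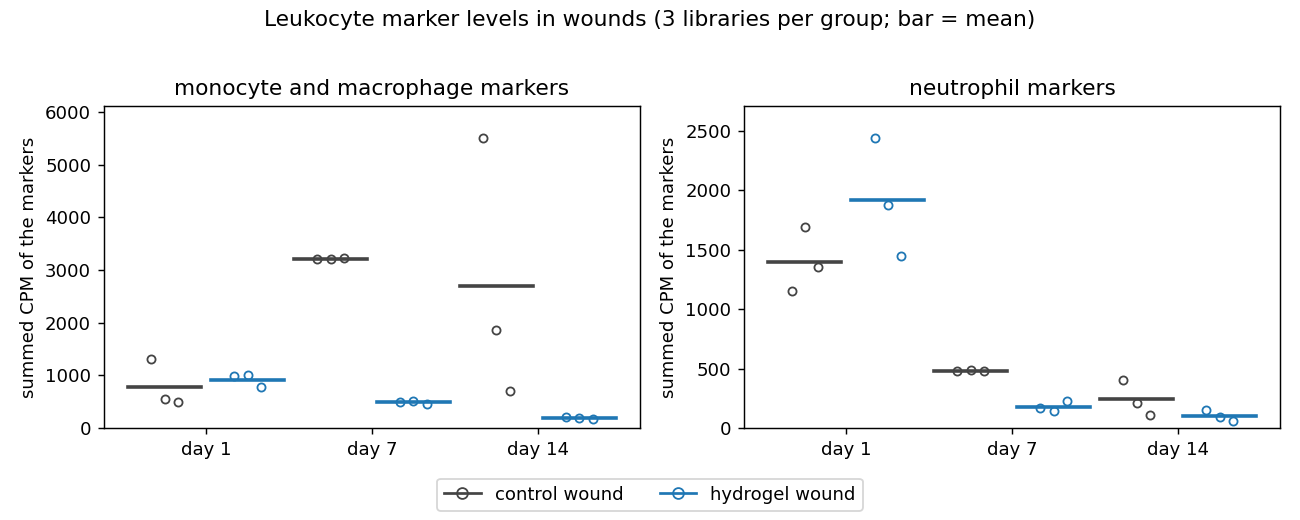
Summed CPM of 15 monocyte and macrophage markers (left) and 14 neutrophil markers (right) in each wound library (circles; bars, means of 3 libraries; grey, control; blue, hydrogel) by day. Macrophage markers at day 7 lie between 3200 and 3236 in control and between 462.8 and 513.8 in hydrogel wounds.

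Across the 18 wound libraries, the genes whose log levels followed the members' mean most closely were Oasl2 (Pearson r = 0.964), Arl11 (0.962), Ly9 (0.958), Tifa (0.953) and Rab3il1 (0.951), out of 12355 genes ranked. The libraries share their tissue and differ in cell makeup, so these values are descriptions only.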

How the data were processed

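Messenger RNA of 24 mouse libraries was analysed from deposited counts of read pairs per gene. The submitters' processing notes name Trim Galore 0.6.10, HISAT2 2.2.1 with mm10, and featureCounts 2.0.6. Exons were counted by gene name, per the file headers, from GENCODE M25 without strand and without multi-mapping pairs, which lowers the counts of genes with close copies.

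Samples were grouped by title. Low genes were removed by edgeR 4.0.16 (filterByExpr; count of 10, total of 15), libraries were scaled by TMM and genes tested by edgeR's quasi-likelihood F test, with 12 residual degrees of freedom in the 18 wound libraries and 4 in the 6 cell libraries, fitted apart. A gene rose or fell at a Benjamini-Hochberg adjusted p below 0.05 over all genes tested. Fold changes are log2 estimates with SE; levels are CPM with SD. The scripts were tested on simulated data.

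The members and lists were chosen with earlier results of these data known. All 10 members were named in the comparisons of hydrogel with control. In the comparisons over time mainly those that passed were named. Lists are given by counts and median, with some of the up to 4 genes of smallest adjusted p, plus Il1b, Il18, Gsdme and Ninj1. Motifs were counted in RefSeq windows (GRCm38.p6); letters of 2 motifs were shortened by 1 after a first search, and both searches are reported. Alternatives were other scaling, filters, DESeq2 1.42.0, limma-voom 3.58.1, a replicate block, libraries left out, day 7 libraries summed, and fits on the compared groups only.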

Additional observations from a re-analysis of the deposited data

Results flagged for a closer look

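The hydrogel difference changed between days 1, 7 and 14 for 5 of 10 members, by the test of that change itself, where 15.8% of all tested genes passed. These members were Mefv (adjusted p = 0.00021, edgeR), Nlrp1b (0.00373), Nlrp3 (0.00885), Naip5 (0.0153) and Gsdmd (0.0165). Mefv went from 4.20 at day 1 to -1.40 at day 7 and -3.44 at day 14 on the log2 scale, and Nlrp3 from 2.86 to 0.61 and -2.66. Nlrp1b went from 1.47 to -1.60 and -2.24, Naip5 from 0.55 to -2.21 and -3.04, and Gsdmd from 0.59 to -1.85 and -2.17.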

How the results depend on the processing

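When each group's day 7 libraries were added up into 1, the counts were 0 at day 1 (2 before), 0 at day 7 (5), 3 at day 14 (7), 1 between days (5), 0 from day 1 to 7 in control wounds (6) and in hydrogel wounds (1), and 0 from day 7 to 14 in hydrogel wounds (4), in a fit with fewer libraries. With only the compared groups in the fit they were 0 at day 1, 9 at day 7, 3 at day 14 and 8 from day 7 to 14 in hydrogel wounds. limma-voom gave 9 at day 7, 3 from day 7 to 14 in control wounds, and in hydrogel wounds 5 from day 1 to 7 and 9 from day 7 to 14. DESeq2 gave 2 from day 1 to 7 in hydrogel wounds, and no filter on low counts gave 3 at day 7. The main wound fit took 1 spread per gene from all 18 libraries, whereas fits on the compared groups took it from those groups alone. The part of this in these differences was not tested. With 1 library left out the counts were 1 to 2 at day 1, 1 to 3 at day 7, 3 to 7 at day 14, 6 to 7 in cells, 5 to 6 between days, 3 to 7 and 0 to 0 over the control course, and 1 to 2 and 0 to 2 over the hydrogel course; an arm left with 2 libraries shares the spread of the other groups. In cells every alternative gave 6 to 8.

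Calls of list genes in wounds also changed: out of 14 alternatives each, the Ninj1 call was lost in 8 at day 7 and 5 at day 14, and the Il1b call in 3 at day 1 and 7 at day 14.

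Signs turned only for genes that had not passed. Under limma-voom they were Nlrc4 at day 1 (0.288), Casp1 at day 1 (-0.254), Casp4 at day 1 (0.413), Aim2 at day 14 (0.027), Pycard at day 14 (0.395) and Il18 at day 14 (0.275), and without a filter Gsdmd in cells (0.028). With 1 library left out, values at day 1 ran from -0.617 to 0.631 for Nlrc4, -0.751 to 0.155 for Aim2, -0.813 to 0.784 for Casp1, -0.766 to 1.034 for Casp4, -0.501 to 0.671 for Il18 and -0.059 to 0.468 for Ninj1. At day 14 they ran from -0.844 to 0.324 for Aim2, -0.363 to 0.222 for Pycard and -2.011 to 0.077 for Il18, and in cells from -0.148 to 0.058 for Gsdmd.

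Over all genes, 1329 passed at day 1, 3792 at day 7, 2836 at day 14 and 2785 between days. With summed day 7 libraries 14, 0, 549 and 27 passed, and with only the compared groups 0, 11122 and 433. limma-voom passed 4345, 12339, 5877 and 8799, DESeq2 2626 at day 1 and 4664 between days, and no filter 715 at day 1. With 1 library left out, 425 to 3012, 1859 to 1990, 806 to 4322 and 1619 to 5295 passed. Over the course of control wounds 5553 and 2146 passed (limma-voom 10207 and 7719; summed 97 and 0; 1292 from day 7 to 14 with the compared groups only), and of hydrogel wounds 3221 and 3742 (limma-voom 9229 and 13128; summed 1 and 0; no filter 2039 from day 1 to 7; compared groups only 10697 from day 7 to 14).

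Replicate numbers did not pair the samples: deviations of same-numbered wound libraries correlated by -0.102 to 0.374 (median 0.011). With the replicate number as a block the counts of members were 2 at day 1, 5 at day 7, 7 at day 14, 6 in cells, 5 between days, 6 and 0 over the control course and 1 and 4 over the hydrogel course, as without it. Depth limits Mefv and Pycard in cells, where 0 Mefv counts over 65.03 M pairs allow up to 3 counts.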
